A study of Rattus norvegicus with 6 samples.

Results

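The genes of MHC class II antigen presentation were followed in dissociated spinal cord cultures grown on carbon nanotubes (CNT) and in control cultures on polyornithine. The set was Cd74, RT1-Da, RT1-Db1, RT1-Bb and RT1-DMb, taken by their symbols in the probe annotation of the array. These 5 genes, of 14217 genes measured, held 7 of the 20826 probe sets paired with a single gene. Where a gene had several, the one with the highest average signal across all 6 arrays led. The CNT group was 3 cultures on glass covered with multiwalled carbon nanotubes, and the control group was 3 cultures on glass covered with polyornithine. Both groups came from rat pups at postnatal days 1 to 4 and were kept for 8 days in vitro. The labels name Sprague-Dawley rats, where the study's methods name Wistar rats. The labels call the samples biological replicates and do not say whether CNT and control cultures of the same number came from the same pups. All expression values are log2 values of the robust multi-array average (RMA), so that a difference of 1 is a doubling of the signal. The cultures were mixed and were measured in bulk, so that fewer cells of a type and less RNA per cell cannot be told apart.

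MHC class II molecules show peptides of taken-up protein to CD4+ T cells. An alpha and a beta chain pair in the endoplasmic reticulum with the invariant chain, the product of Cd74, which fills the peptide groove and leads the complex to endosomes. There cathepsins cut the invariant chain down to a short remnant, and the DM heterodimer exchanges that remnant for a peptide. In the rat the classical chains are RT1-D and RT1-B, which correspond to human HLA-DR and HLA-DQ. Transcription depends on an enhanceosome on the X and Y boxes of the promoter and on its coactivator CIITA, which interferon gamma induces. In nervous tissue the main carriers of class II are microglia and border macrophages, and their levels at rest are low.

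The promoters of the classical chain genes and of Cd74 are shown because the X and Y boxes are the elements that the class II genes share. Sequences are from RefSeq on the build GRCr8, each read 5′ to 3′ on the strand of the gene and ending at the last base before the transcription start. In RT1-Da, RT1-Bb and RT1-Db1 the capitals mark a match to an X box core, ACNGATG, followed by a match to a Y box core, CTGATTGG. In Cd74 they mark the bases CCAAT and AGCAAC.
RT1-Da, chr20:4515265-4515414, plus strand: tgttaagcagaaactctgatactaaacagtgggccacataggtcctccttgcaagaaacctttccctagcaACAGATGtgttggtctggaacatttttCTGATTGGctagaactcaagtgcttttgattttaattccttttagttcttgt
RT1-Bb, chr20:4604119-4604268, minus strand: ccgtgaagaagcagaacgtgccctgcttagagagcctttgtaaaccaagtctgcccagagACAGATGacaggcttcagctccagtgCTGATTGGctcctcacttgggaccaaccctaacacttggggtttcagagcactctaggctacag
RT1-Db1, chr20:4560163-4560312, minus strand: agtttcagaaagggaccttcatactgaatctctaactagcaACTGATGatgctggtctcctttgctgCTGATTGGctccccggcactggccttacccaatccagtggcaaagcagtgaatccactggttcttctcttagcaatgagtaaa
Cd74, chr18:56526956-56527205, plus strand: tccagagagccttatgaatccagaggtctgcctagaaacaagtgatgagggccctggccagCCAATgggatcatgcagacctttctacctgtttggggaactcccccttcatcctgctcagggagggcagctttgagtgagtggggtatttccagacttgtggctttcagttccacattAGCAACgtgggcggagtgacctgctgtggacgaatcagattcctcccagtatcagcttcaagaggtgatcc

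The motif letters were chosen after these sequences had been read, and both strands were searched. Windows ran over 250 bases before and 50 after the transcription start. The X core occurred in 3402 of 33469 promoters (10.2%), the Y core in 1172 (3.5%) and both in 97 (0.29%). Those 97 included RT1-Da, RT1-Bb, RT1-Db1 and the neighbouring beta chain gene RT1-Db2. They also included the MHC class I genes RT1-M3-1, RT1-M10-1, RT1-CE16, RT1-CE5, RT1-CE4 and RT1-A3, so that the pair of cores was not particular to class II. The first base of the X core lay at -79 in RT1-Da, -90 in RT1-Bb and -109 in RT1-Db1, counted from the transcription start, and the Y core at -52, -64 and -83 in the same order of genes. Between the cores stood 20 bases in RT1-Da and 19 bases in RT1-Bb and in RT1-Db1. The Cd74 promoter held neither core. It had CCAAT, present in 37.5% of all promoters, at -189 and AGCAAC, present in 14.7%, at -71. CCAAT on the other strand lies within the Y core. The alpha chain gene RT1-Ba held the Y core without the X core, and RT1-DMa the X core without the Y core. RT1-DMb had no matching entry among the promoters used here. A match describes letters in a window and is not evidence of a bound factor.

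Cd74 had the widest difference between the group means of the 5 genes, but 1 control culture lay within the range of the CNT cultures. Its expression was 9.67, 10.38 and 10.43 in CNT cultures 1, 2 and 3, against 8.22, 9.55 and 10.37 in control cultures 1, 2 and 3. All CNT cultures lay above control cultures 1 and 2, and CNT culture 1 lay below control culture 3. The means were 10.16 ± 0.42 in CNT cultures and 9.38 ± 1.08 in control cultures (SD, n = 3 each). The log2 fold change was 0.78 with a standard error of 0.55 and a 95% interval of -0.55 to 2.11, and limma gave an adjusted p of 0.999. Control cultures 3 and 1 differed from each other by 2.15, more than CNT and control means did.

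**Figure D1:**
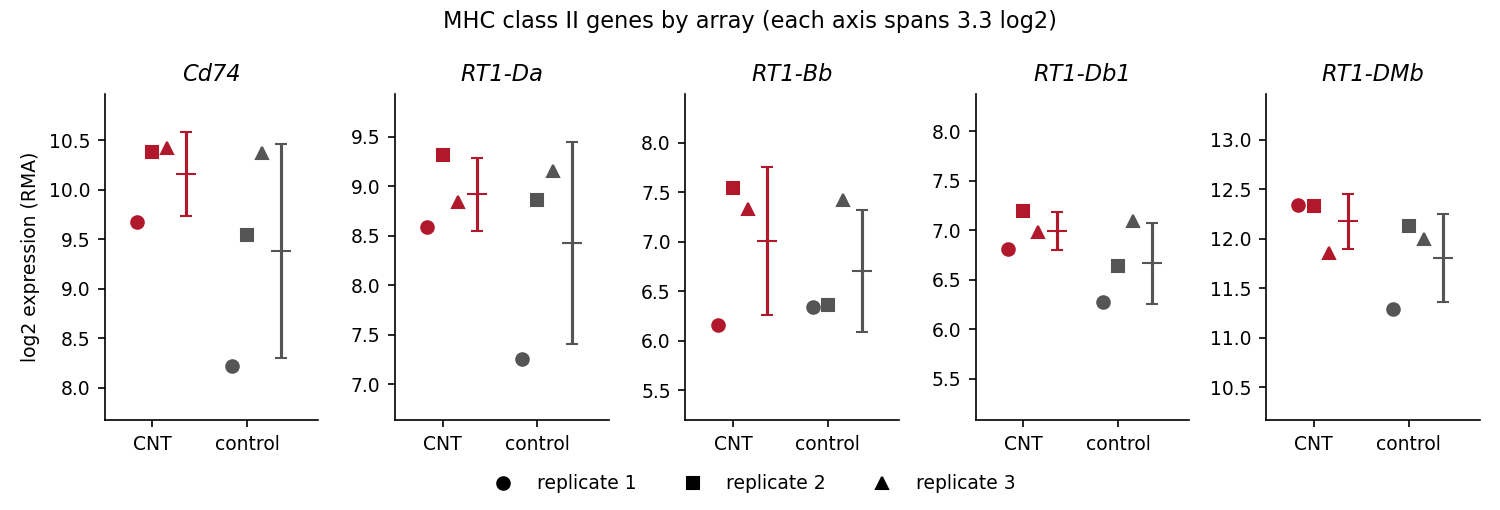
RMA expression (log2, vertical axis) of the 5 MHC class II genes on each of the 3 CNT and 3 control arrays, with bars at the group mean ± SD (n = 3 each). Control culture 1 is the lowest array for Cd74, RT1-Da, RT1-Db1 and RT1-DMb, and CNT and control values overlap for each of the 5 genes.

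RT1-Da encodes the alpha chain of the RT1-D molecule. It read 8.59, 9.32 and 8.84 in CNT cultures, against 7.26, 8.86 and 9.16 in control cultures. Control culture 1 stood apart at the low end, and the other 5 arrays lay within a narrow stretch in which the groups were interleaved. The log2 fold change was 0.49 with a standard error of 0.51 and a 95% interval of -0.75 to 1.74 (limma, adjusted p = 0.999). Without control culture 1 the value turned to -0.091.

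RT1-Db1 encodes a beta chain of RT1-D. Its expression was 6.81, 7.19 and 6.98 in CNT cultures and 6.27, 6.64 and 7.09 in control cultures. As for Cd74, the CNT cultures lay above control cultures 1 and 2, while control culture 3 exceeded 2 of them. The log2 fold change was 0.33 with a standard error of 0.23 and a 95% interval of -0.22 to 0.88 (limma, adjusted p = 0.999). The name of this probe set marks it as one that can match several transcripts, so that signal of the paralogue RT1-Db2, which had no single-gene probe set, cannot be set aside. The other probe set of RT1-Db1 read 3.87, 3.98 and 3.86 in CNT cultures against 3.76, 3.86 and 3.76 in control cultures. Its CNT values all lay above its control values, by a mean of 0.11 with a standard error of 0.09, but only 0.399% of single-gene probe sets were dimmer.

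RT1-Bb, the beta chain of RT1-B, was the gene with the smallest difference. It measured 6.16, 7.54 and 7.33 in CNT cultures and 6.34, 6.36 and 7.42 in control cultures. Here the lowest array was CNT culture 1, and each group held both low and high cultures. The log2 fold change was 0.30 with a standard error of 0.46 and a 95% interval of -0.81 to 1.42 (limma, adjusted p = 0.999). The second RT1-Bb probe set gave 6.22, 6.85 and 6.62 in CNT cultures, against 6.47, 6.34 and 6.31 in control cultures, with a difference of 0.19 and a standard error of 0.18. That probe set did not carry the high value of control culture 3. Both RT1-Bb and RT1-Db1 were among the dimmest 30% of genes on these arrays, which lay below 8.06.

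RT1-DMb encodes the beta chain of the DM heterodimer, the peptide editor. Its values were 12.34, 12.33 and 11.86 in CNT cultures, against 11.29, 12.13 and 11.996 in control cultures. CNT cultures 1 and 2 were above every control culture, and CNT culture 3 was above control culture 1 alone. The log2 fold change was 0.37 with a standard error of 0.26 and a 95% interval of -0.26 to 1.00 (limma, adjusted p = 0.999). Its partner RT1-DMa, the alpha chain of DM, read 11.83, 11.51 and 10.87 in CNT cultures and 10.46, 11.74 and 11.29 in control cultures, with a log2 fold change of 0.24 and a standard error of 0.39. That of RT1-DMa turned to -0.11 without control culture 1 and to -0.16 without both control culture 1 and CNT culture 2. In both chains of DM the lowest culture was control culture 1, and CNT culture 3 was the lowest of its group.

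Over the set, all 5 log2 fold changes were positive, with a median of 0.37 and a range of 0.30 to 0.78. Of all 14217 genes 58.5% were positive, with a median of 0.03, and 7.08% were at or above the value of RT1-Bb. None of the 5 genes had all CNT arrays above all control arrays, against 5.94% of all genes, and none had them all below, against 2.05%. At an adjusted p of 0.05 limma called none of the 5 and 0.0% of all genes. At an unadjusted p of 0.05 it again took none of the 5, against 2.41% of all genes higher in CNT and 0.71% lower. The calls thus do not set the 5 genes apart from the rest of the array, and the shared direction is read against a majority of genes on the same side of 0. The 5 genes are not independent samples of the conditions, since they were read on the same 6 arrays.

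Control culture 1 was the lowest array for 4 of the 5 genes and the lowest control for all 5. The SD was larger in control than in CNT cultures for 4 of the 5, with RT1-Bb as the exception. Without control culture 1, 4 of the 5 log2 fold changes remained positive and their median was 0.12, with Cd74 at 0.20. Without control culture 3 the median was 0.66. In that setting Cd74 and RT1-Db1 had an unadjusted p below 0.05 in limma, with adjusted p-values of 0.743 and 0.70. Calls at that p also rose over the whole array, where 670 genes were higher in CNT and 218 lower without control culture 3. With no array left out these numbers were 342 and 101. For beta-actin, the signal at the 3' end minus that at the 5' end, which depends on RNA quality, was 0.92, 2.20 and 1.72 in CNT cultures 1, 2 and 3 and 2.20, 0.62 and 0.66 in control cultures 1, 2 and 3. Without the 2 arrays in which this difference was largest, control culture 1 and CNT culture 2, the median over the 5 genes was 0.03, with Cd74 at 0.091, RT1-Da at -0.29 and RT1-Bb at -0.15. With the beta-actin difference as a covariate the median was 0.53.

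**Figure D2:**
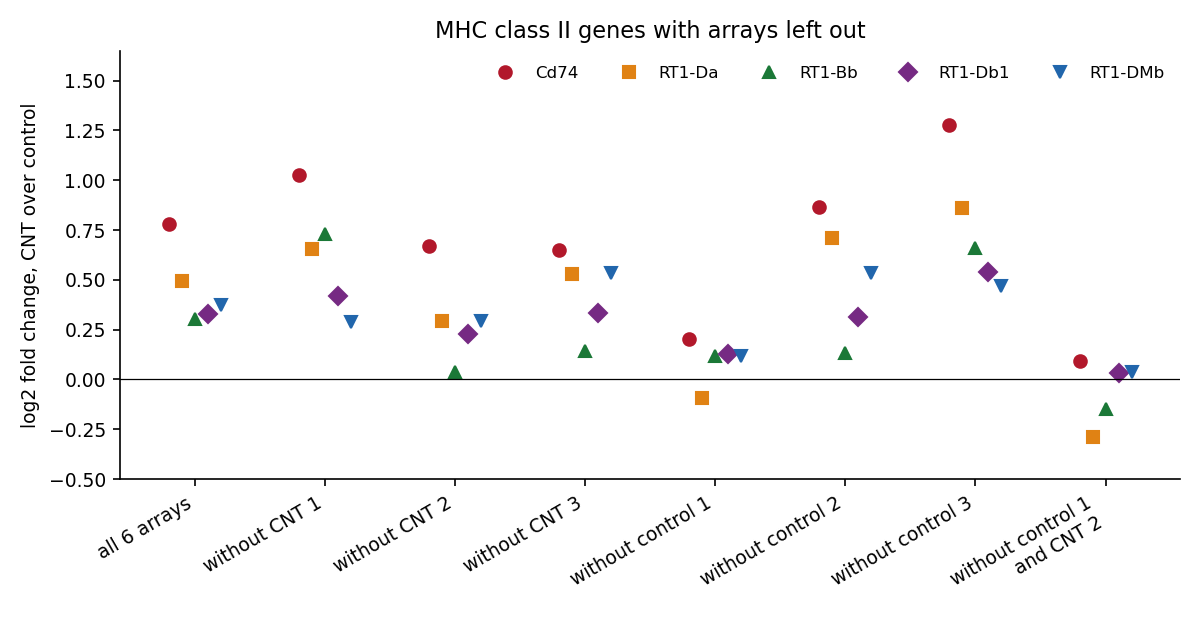
Log2 fold change (CNT minus control, vertical axis) of each of the 5 MHC class II genes with all 6 arrays, with each array left out in turn, and without both control culture 1 and CNT culture 2. RT1-Da falls to -0.091 without control culture 1 and to -0.29 without both arrays, and Cd74 falls to 0.20 and 0.091.

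Markers of the cells that carry class II were also higher on average in CNT cultures with all 6 arrays. Of 18 microglia and macrophage markers 16 were measured and 15 of these were positive, with a median log2 fold change of 0.32, 1 (Ly86) at an unadjusted p below 0.05 and 2 (Ly86 and Tyrobp) with all CNT cultures above all control cultures. Over all genes these shares were 58.5% positive, 2.41% higher in CNT at that p and 5.94% with all CNT arrays above all control arrays. The mean of the 16 was 12.66, 12.75 and 12.15 in CNT cultures, against 11.73, 12.44 and 12.39 in control cultures. As for the class II genes, control culture 1 had the lowest mean, and without it the median was 0.08. Without both control culture 1 and CNT culture 2, 7 of the 16 markers were positive and the median was -0.028. Of the markers with the highest signal, Fcer1g differed by 0.13, C1qa by 0.15 and Cd68 by 0.42. The largest differences were in Ly86, a partner of the Toll-like receptor homologue CD180, at 0.97 and in the integrin Itgam at 0.72. Itgam had a standard error of 0.53 and read 11.12, 10.62 and 10.57 in CNT cultures, against 8.81, 10.49 and 10.835 in control cultures. Its control culture 1 stood apart at the low end, and the other control cultures overlapped the CNT cultures. The part of these markers in the class II differences was not tested beyond the subtraction that follows.

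For each class II gene, the mean of the microglia and macrophage markers was subtracted on every array. The size of such a difference depends on the probe sets, and only its change between groups is compared. RT1-DMb minus the marker mean was -0.32, -0.42 and -0.29 in CNT cultures, against -0.44, -0.32 and -0.39 in control cultures. The DM beta chain thus kept an almost fixed distance to the markers on all 6 arrays, with a difference between groups of 0.04 (exact permutation test, two-sided, p = 0.5). For Cd74 the values were -2.99, -2.37 and -1.73 in CNT cultures and -3.51, -2.90 and -2.02 in control cultures. The difference was 0.45 (exact permutation test, p = 0.5), with more spread among the cultures of each group than for RT1-DMb. The differences were 0.16 for RT1-Da (p = 0.7), -0.03 for RT1-Bb (p = 1) and -0.01 for RT1-Db1 (p = 1), each by the same exact test, where 3 arrays against 3 cannot give less than 0.1. The values of RT1-Bb and RT1-Db1 were too close to 0 to carry a direction.

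**Figure D3:**
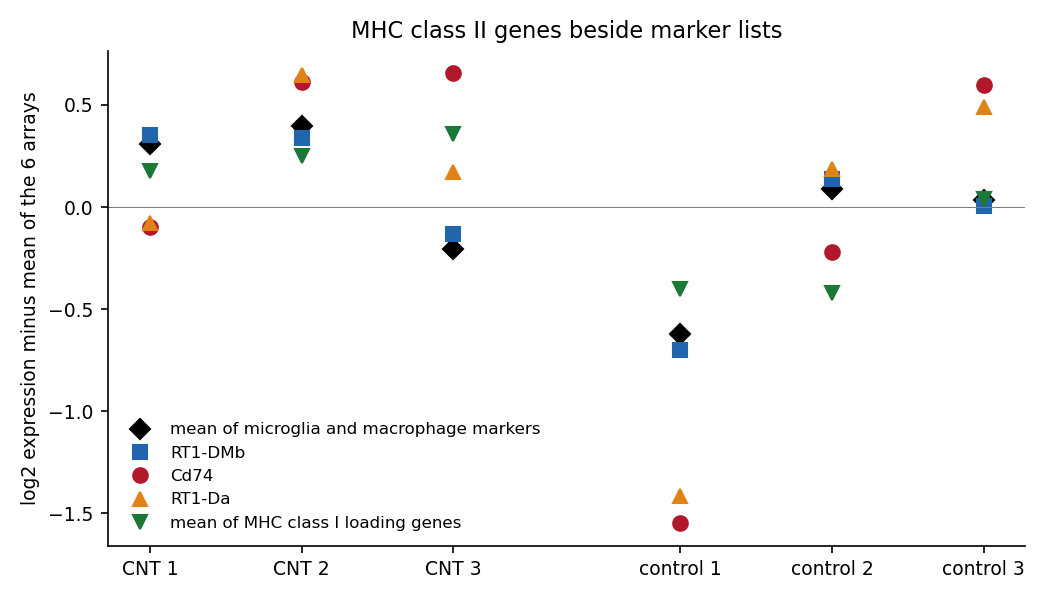
Centred log2 expression (value minus the mean of the 6 arrays, vertical axis) on each CNT and control array of RT1-DMb, Cd74 and RT1-Da, with the mean of the microglia and macrophage markers and the mean of the MHC class I loading genes. RT1-DMb lies close to the marker mean on every array, whereas Cd74 and RT1-Da lie far below it in control culture 1 and above it in control culture 3.

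Other cells known to carry class II, and T cells, were looked for by their markers. The counts are read against the shares over all genes given above. Of 6 border macrophage markers measured, 5 were positive with a median of 0.11. Of these 1, Lyve1 at 1.70, had an unadjusted p below 0.05 and non-overlapping groups. The strongly expressed Pf4, Folr2 and Mrc1 were at 0.02, 0.35 and -0.01. All 5 dendritic cell markers measured were positive, with a median of 0.09 and none past an unadjusted p of 0.05. Itgax, also expressed by activated microglia, had 1.25 with a standard error of 0.54 and 0.78 without control culture 1. Clec10a had the next largest difference of the list, at 0.46 with a standard error of 0.20, and its groups overlapped. Flt3 differed by 0.09, Clec9a by 0.05 and Batf3 by 0.002. The mean of Flt3 was 6.28 in CNT cultures and 6.19 in control cultures, and that of Clec9a was 6.77 in CNT cultures and 6.72 in control cultures, both among the dimmest 30% of genes. Clec10a and Batf3 were also among these dimmest genes. The 5 B cell markers had a median of 0.05 and the 8 T cell markers one of 0.13. Both lists were positive throughout, and 1 T cell marker, Lck at 0.45, had an unadjusted p below 0.05. Apart from Fcrla, Cd8a and Lck, the markers of both lists had means below 8.06, the limit of the dimmest 30% of genes. Their values are not read as a presence of these cells.

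The pathway around the 5 genes was described with 6 lists, of which 36 of 40 genes were measured. Of these, 30 were positive and 6 negative, with a median log2 fold change of 0.13. None passed an adjusted p of 0.05 in limma, none had non-overlapping groups, and 1, Cd86, had an unadjusted p below 0.05. Over all genes 58.5% were positive, 2.41% were higher in CNT at that p and 5.94% had all CNT arrays above all control arrays. RT1-Ba, the alpha chain of RT1-B, had a log2 fold change of 0.08 with a standard error of 0.12 on its leading probe set. Its other 3 probe sets gave 0.15, 0.30 and 0.61, so that the size depended on the probe set.

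In the list of class II transcription all 8 genes were measured, 6 of them positive, with a median of 0.05. Ciita, the master coactivator, read 7.25, 7.08 and 6.91 in CNT cultures and 6.86, 7.02 and 6.95 in control cultures. Its groups overlapped, with log2 fold changes of 0.14 and 0.13 on its 2 probe sets. Rfxank, a subunit of the RFX complex that binds the X box, had the largest difference of the list, at 0.41 with a standard error of 0.28. Of interferon gamma signalling 8 of 9 genes were measured, 5 of them positive, with a median of 0.09. Ifng itself read 4.59, 4.58 and 4.37 in CNT cultures, against 4.49, 4.48 and 4.39 in control cultures, a low signal in both. The largest difference was in the transcription factor Irf8, at 0.37 with a standard error of 0.60.

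The 8 genes of invariant chain cleavage and antigen processing were all positive, with a median of 0.19. The carboxypeptidase Ctsz read 13.43, 13.70 and 13.23 in CNT cultures and 12.35, 12.97 and 13.32 in control cultures, with the largest log2 fold change of the list at 0.57 and a standard error of 0.27. Control culture 3 again lay within the CNT range, and without control culture 1 the value of Ctsz was 0.31, or 0.19 when CNT culture 2 was left out as well. Ctss, the cathepsin that makes the last cuts in the invariant chain, differed by 0.16, and Ctsl by 0.13. The MIF and CD74 signalling list had 5 positive genes of 5 with a median of 0.11, and its largest difference was in Cd44, the coreceptor of CD74, at 0.51 with a standard error of 0.30.

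Among the 5 measured genes of surface turnover and costimulation, 4 were positive, with a median of 0.30. Cd86, a ligand of the T cell receptor CD28, read 10.54, 11.05 and 11.34 in CNT cultures, against 9.53, 9.86 and 10.75 in control cultures. Control culture 3 exceeded CNT culture 1, so the groups overlapped. The log2 fold change was 0.93 with a standard error of 0.36 (limma, adjusted p = 0.999). Without control culture 1 it was 0.67, and its unadjusted p no longer lay below 0.05. After subtraction of the marker mean the difference was 0.60 (exact permutation test, p = 0.3), a comparison chosen after the values were seen. Cd80, the other ligand of CD28, differed by 0.09 and Cd40 by 0.30. Marchf1, the ubiquitin ligase that removes class II and CD86 from the surface, had 0.63 with a standard error of 0.32, and its relative Marchf8 had -0.08. Marchf1 stood at 0.33 without control culture 1, at 0.97 without control culture 3 and at 0.23 without both control culture 1 and CNT culture 2.

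**Figure D4:**
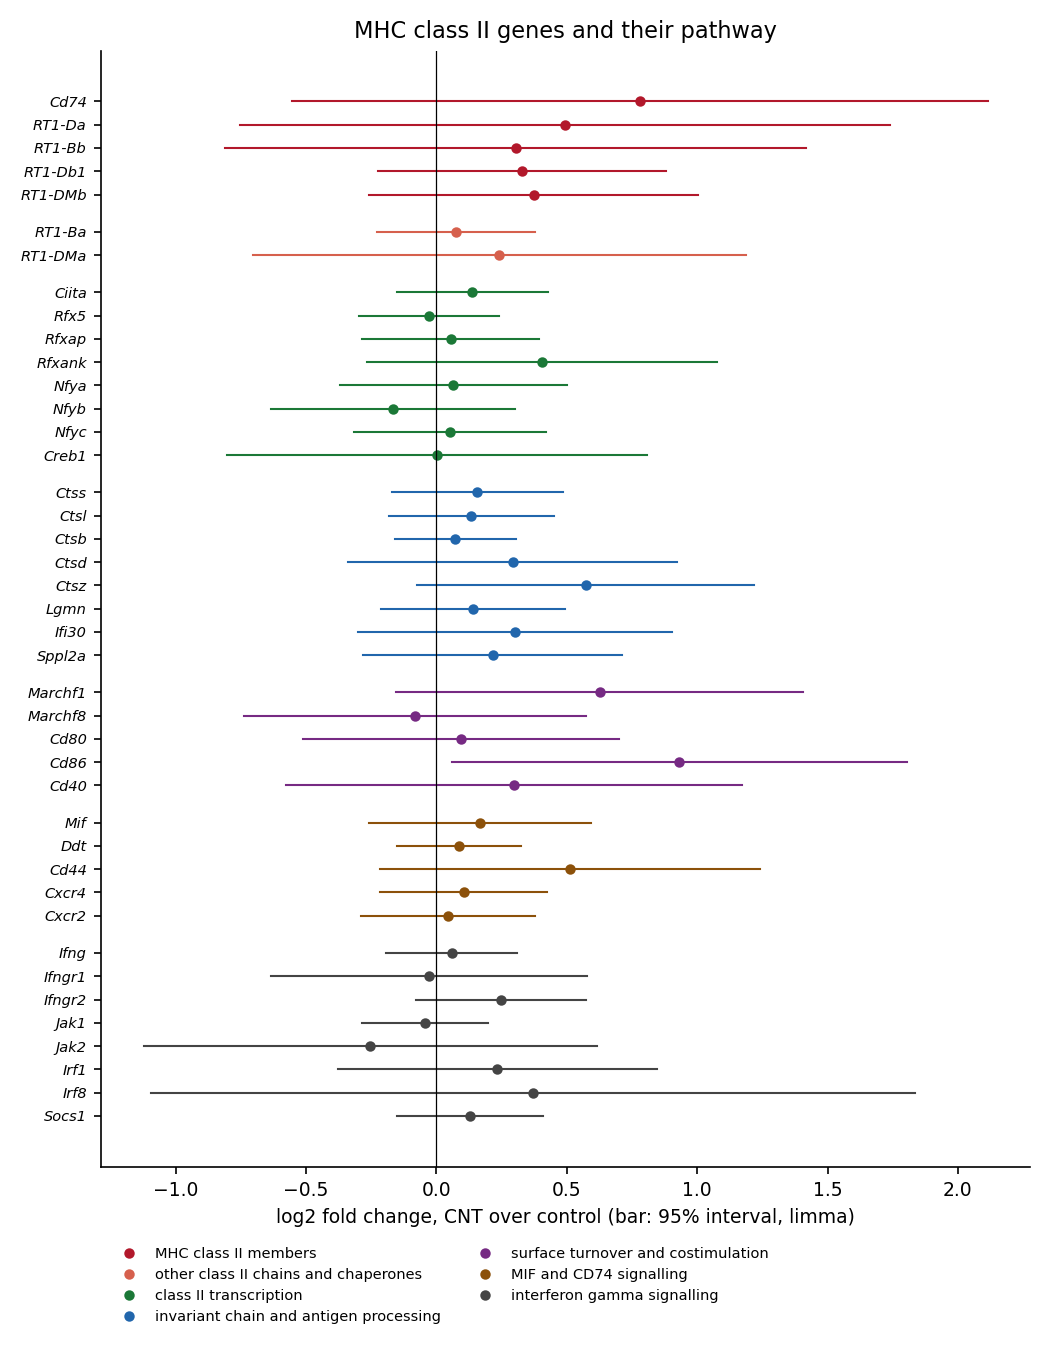
Log2 fold change (CNT minus control, horizontal axis) with its 95% interval from limma for the 5 MHC class II genes and the 36 measured genes of the 6 pathway lists. The 5 class II genes lie between 0.30 and 0.78 with intervals that cross 0, and the interval of Cd86 alone lies above 0.

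The genes that load MHC class I, many of which respond to interferon, were described beside the class II genes. Of 14 genes 11 were positive, with a median of 0.56, 8 at an unadjusted p below 0.05 and 6 with all CNT cultures above all control cultures. Over all genes these shares were 2.41% higher in CNT at that p and 5.94% with all CNT arrays above all control arrays. None of the 14 passed the adjusted threshold. The count of 8 was 3 without CNT culture 3, 4 without CNT culture 2, control culture 1 or control culture 2, and 3 without both control culture 1 and CNT culture 2. It stayed at 8 without CNT culture 1 and was 9 without control culture 3. In each of these settings 11 genes were positive. Over the whole array, the genes higher at that p numbered 515 without CNT culture 3, 153 without CNT culture 2 and 209 without control culture 1. They numbered 195 without control culture 2, 73 without both arrays, 286 without CNT culture 1 and 670 without control culture 3. The class I loading genes with the highest signal had smaller values, B2m 0.19, Canx -0.055 and Pdia3 -0.13. Nlrc5, the class I counterpart of Ciita, read 7.95, 8.59 and 8.51 in CNT cultures and 6.42, 7.13 and 7.89 in control cultures, a log2 fold change of 1.20 with a standard error of 0.39. Every CNT culture was above every control culture, which Ciita did not show. The lowest CNT value of Nlrc5, 7.95, lay close to its highest control value, 7.89. Without control culture 1 the log2 fold change of Nlrc5 was 0.84, and without both control culture 1 and CNT culture 2 it was 0.72. Nlrc5 and Ciita were both among the dimmest 30% of genes. Set against each other, Nlrc5 minus Ciita was 0.71, 1.50 and 1.60 in CNT cultures and -0.45, 0.12 and 0.94 in control cultures. This difference of 1.07, chosen after the values were seen, gave p = 0.2 (exact permutation test, two-sided).

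Along rat chromosome 20, 4 of the class I loading genes, Tap2, Psmb8, Tap1 and Psmb9, stand among the class II genes. In the order of the RefSeq annotation the stretch runs from RT1-Da through RT1-Db2, a pseudogene, RT1-Db1, RT1-Ba, RT1-Bb, RT1-DOb, Tap2, Psmb8, Tap1 and Psmb9 to RT1-DMb. These are 12 genes, 11 of them protein coding, and 5 non-members were measured. The peptide transporter gene Tap1 had 1.15 on its leading probe set, with 9.93, 10.25 and 10.67 in CNT cultures against 8.90, 8.45 and 10.04 in control cultures. With the mean of its probe sets Tap1 had 0.75. Psmb9 and Psmb8, catalytic subunits of the immunoproteasome, had 1.00 and 0.97. Psmb8 read 12.31, 12.35 and 12.42 in CNT cultures and 11.24, 11.29 and 11.65 in control cultures, with a standard error of 0.14 (limma, adjusted p = 0.999). It was the single measured gene of the stretch with non-overlapping groups. Directly beside it Tap2 had 0.66 and Tap1 1.15, and farther off the class II genes RT1-Bb and RT1-DMb had 0.30 and 0.37. The change in Psmb8 minus Cd74, also chosen after the values were seen, was 0.19 (exact permutation test, p = 0.8). Cd74 lies apart from this stretch, on chromosome 18.

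**Figure D5:**
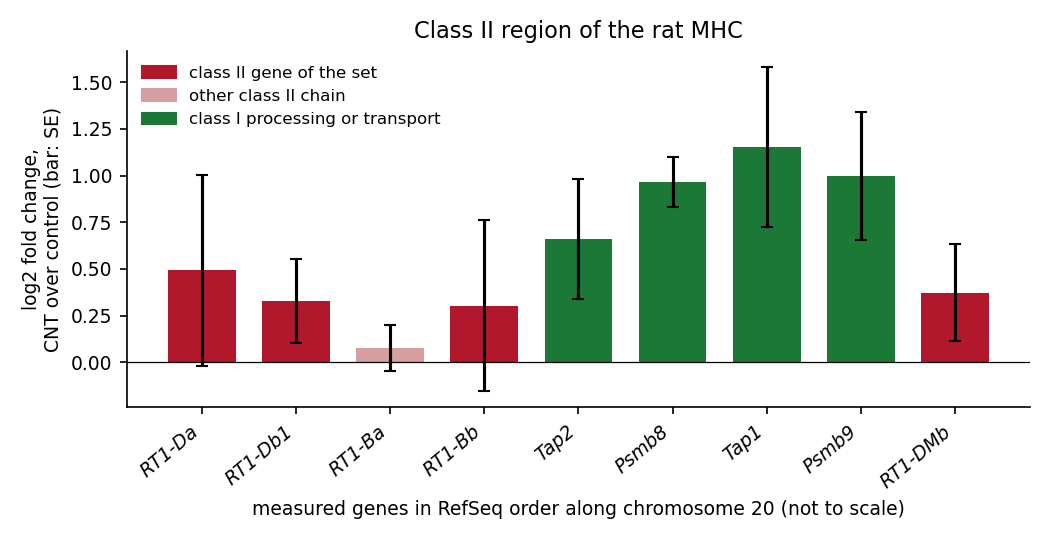
Log2 fold change (CNT minus control, vertical axis) with standard errors for the measured genes of the class II stretch of rat chromosome 20, in the order of the annotation and not to scale. Psmb8, Tap1 and Psmb9 stand at 0.97, 1.15 and 1.00, and the class II genes of the stretch between 0.08 and 0.49.

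The mean profile of the 5 genes was taken as the mean of their values after each gene was centred on its own mean, without scaling. Cd74 and RT1-Da, with ranges over the 6 arrays of 2.20 and 2.06, thus weighed most in it. The ranges of the others were 1.38 for RT1-Bb, 1.05 for RT1-DMb and 0.92 for RT1-Db1. The profile stood at -0.11, 0.53 and 0.26 in CNT cultures 1, 2 and 3 and at -0.95, -0.12 and 0.38 in control cultures 1, 2 and 3. The order of the cultures thus cut across the groups, with CNT culture 2 highest and control culture 3 next. Over the 6 arrays Pearson's r with this profile was 0.98 for Cd74, 0.98 for RT1-Db1, 0.97 for RT1-Da, 0.79 for RT1-Bb and 0.72 for RT1-DMb, each being part of the profile. These values describe 6 arrays of 2 conditions and carry no test. Among 7104 other genes in the upper part of the spread between arrays, the most alike were Prdm1 (0.99), Abcb4 (0.98), Ifi30 (0.98), Sting1 (0.98), Syngr1 (0.97), Atp6v1b2 (0.97), Bik (0.97) and Dennd2c (0.97). Ifi30, the lysosomal thiol reductase that opens disulfides of antigens for class II loading, read 13.63, 13.91 and 13.72 in CNT cultures against 12.92, 13.60 and 13.84 in control cultures. It shared the low control culture 1 and the high control culture 3 with Cd74. Itgax had r of 0.91, Nlrc5 0.90, Cd86 0.86 and the microglial marker Aif1 0.84, while RT1-DMa had 0.48 and Ciita 0.27.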

How the data were processed

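RNA of 6 cultures, 100 ng each, was amplified and hybridized to 1 Affymetrix Rat Genome array per culture. The authors deposited log2 values made with RMA for the manufacturer's probe sets; the version of RMA is not given in the sources used here. The labels name TRIzol and the RNeasy kit, the study's methods another kit. Of 31099 probe sets, 57 controls, 436 paired with several genes and 9780 with none were left out. A probe set's gene came from the platform annotation. CNT was set against control by limma 3.58.1 in R 4.3.3 (lmFit, eBayes), unpaired, with Benjamini-Hochberg adjustment over 14217 genes and a threshold of 0.05, and single differences with an exact two-sided permutation test (scipy 1.17.1). The fit was tested on simulated data. The study's own analysis used custom probe definitions and the rank product, which was not used here.

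The genes, pathway and marker lists were chosen with earlier results of these data known. Named were all members and their probe sets, the largest difference of each pathway list and Ciita. Of the class I, microglia, border macrophage and dendritic cell lists, the 3 highest signals and 2 largest differences were named. The 8 genes most like the members and the 3 largest differences among neighbours were named too. A few others were added after their values were seen. Depth does not apply to arrays, whose number limits the precision. Alternatives were other normalizations, array weights, a robust trend, the mean of probe sets, a filter on dim genes, a replicate block, a beta-actin covariate and left-out arrays.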

Additional observations from a re-analysis of the deposited data

How the results depend on the processing

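The number of arrays, 3 in each group, sets the limit here. Leaving out each array in turn, the log2 fold change ranged from 0.20 to 1.28 for Cd74, -0.091 to 0.86 for RT1-Da, 0.038 to 0.73 for RT1-Bb, 0.13 to 0.54 for RT1-Db1 and 0.12 to 0.53 for RT1-DMb. The change in the gene minus the microglia and macrophage mean ranged from 0.10 to 0.84 for Cd74, -0.20 to 0.42 for RT1-Da, -0.38 to 0.47 for RT1-Bb, -0.18 to 0.16 for RT1-Db1 and 0.01 to 0.08 for RT1-DMb. The count of genes called higher among all 14217 ranged from 0 to 2, with 2 without control culture 3, and that of genes called lower was 0 throughout. Without control culture 1 and CNT culture 2, RT1-Da stood at -0.29 and RT1-Bb at -0.15. Quantile normalization put the RT1-Db1 difference from the marker mean at 0.01 (0.00976), and the border macrophage list in place of the microglia list put that of RT1-DMb at -0.01 (-0.00704). The cause of these changes was not tested. The filter on the dimmest 30% of genes left RT1-Bb and RT1-Db1 without a value. The adjusted p of the 5 genes stayed above the threshold in every setting run, the lowest being that of RT1-Db1 without control culture 3.

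With the replicate number as a block, limma called 0 genes in either direction, 498 genes were higher and 179 lower at an unadjusted p of 0.05 (342 and 101 without it), and Cd74 had an unadjusted p below 0.05. Whether the numbers pair the samples was not settled by the values. Deviations of same-numbered cultures from their group means correlated at -0.13, 0.36 and 0.51. CNT cultures 2 and 3 correlated best with the control culture of their own number, but CNT culture 1 did so with control culture 2, at 0.68.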
